A study of Homo sapiens with 14 samples.

Results

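The response of a human gastric carcinoma line to low oxygen was read on 3 of the 14 arrays of the series. Attention is given to genes outside 3 lists, of glycolysis, autophagy and targets of the hypoxia-inducible factors (HIF). The arrays compared are the cells kept in 1% oxygen for 1 day, the same cells kept there for 2 days, and untreated cells on day 2 in normoxia. All 3 come from the parental line, with no knockdown and no transgene, grown as separate colonies from a sparse seeding; the sample labels name the line MKN28 and the paper names it MKN74. Each condition is 1 array, and the day 1 array has no normoxia array of its own day, so time in culture and oxygen cannot be told apart in the day 1 values. The other 11 arrays hold TGFb treatment, a Snai1ER derivative with and without 4-hydroxytamoxifen, and ANGPTL4 knockdown of the treated conditions.

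Gene levels are log2 expression values made with robust multi-array averaging (RMA), so a difference of 1 is a 2-fold change. Probe sets with 1 gene symbol gave 18418 genes, of which 11051 had a mean level over the 14 arrays of at least 5.90 and were kept. The glycolysis, autophagy and HIF lists hold 126 of these, and the other 10925 are described here. The lists hold genes chosen by name, so a gene outside them can still be a HIF target. A gene was called higher or lower in hypoxia when it differed from normoxia at least 1.5-fold in the same direction on day 1 and on day 2. This is a rule of size, and no test is given, because no condition was repeated and both days were set against the same normoxia array.

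Cells answer a lack of oxygen through several systems. When oxygen falls, the hydroxylases that mark HIF alpha subunits for destruction slow down, and HIF then binds a short core motif, ACGTG, near its target genes. Separately from HIF, severe hypoxia is known to engage the unfolded protein response and its kinase PERK, to activate NF-kB, and to slow the cell cycle and the making of ribosomes, both of which cost much energy.

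The 3 arrays were on 1 scale. The median of all probe sets was 6.01 and 6.04 on the hypoxia day 1 and day 2 arrays and 6.02 on the normoxia array, and the median difference over the genes kept was -0.03 and -0.01. The median absolute difference from normoxia was 0.19 on each day, against 0.15 between the hypoxia days and 0.22 between the untreated parental array and the untreated Snai1ER array of day 4. That pair of untreated arrays differed at least 1.5-fold in 524 genes upward (4.74%) and 896 downward (8.11%), although the lines and the days differ there too. The Snai1ER array is the only other untreated array, and for the groups of the main text it is given how many genes called also passed against it. A gene whose level already differs between the untreated arrays can pass on that difference, so this is a limited check. NDRG1, a standard hypoxia-induced gene, had levels of 11.65 and 11.88 in hypoxia and 9.34 in normoxia, a rise of 4.93-fold and 5.82-fold. VEGFA, the angiogenic growth factor, had levels of 10.14 and 10.11 in hypoxia and 9.59 in normoxia, which is 1.47-fold and 1.44-fold and under the rule. Of 12 gastric carcinoma epithelium markers 9 passed the filter, with EPCAM at 11.75 and 11.60 in hypoxia and 11.70 in normoxia, while MUC13, CDH17 and CEACAM5 did not. Of 12 fibroblast, endothelial and leukocyte markers only CD68, a lysosomal protein, passed it, at 7.43 and 8.18 in hypoxia and 7.25 in normoxia.

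Of the 11051 genes, 325 (2.94%) were higher and 189 (1.71%) lower in hypoxia on both days. The glycolysis, autophagy and HIF lists held 32 of the higher genes and none of the lower, which leaves 293 higher and 189 lower genes outside them. At 2-fold on both days, 87 genes (0.787%) were higher and 16 (0.145%) lower. Taken alone, day 1 gave 499 higher (4.52%) and 335 lower (3.03%), and day 2 gave 575 higher (5.2%) and 491 lower (4.44%). Between the hypoxia arrays, 114 genes were at least 1.5-fold higher (1.03%) and 118 lower (1.07%) on day 2 than on day 1.

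**Figure D1:**
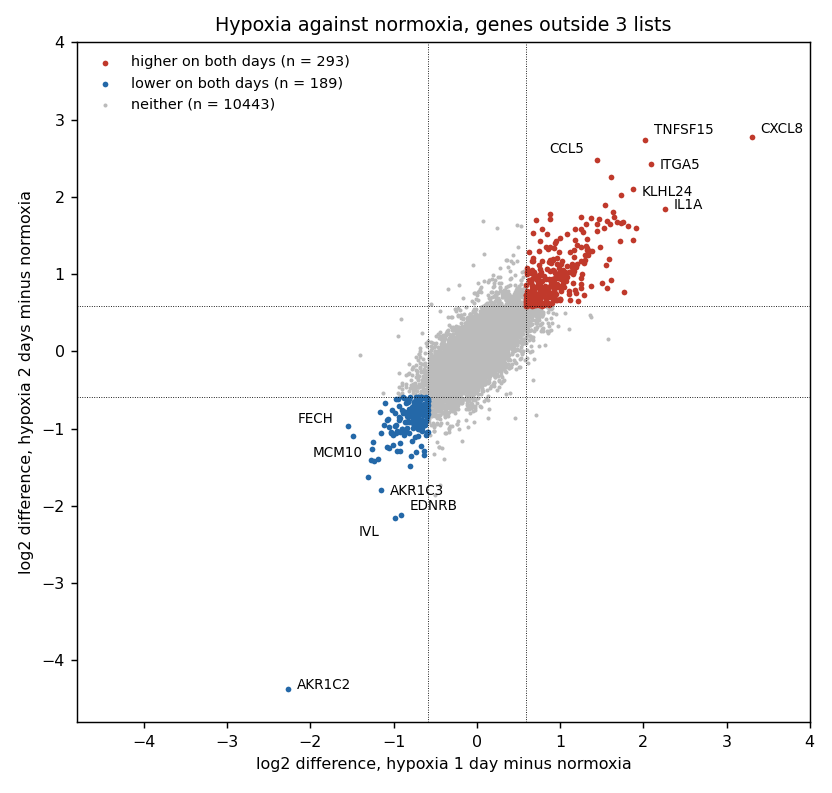
Log2 difference from normoxia after 2 days of hypoxia (vertical axis) against that after 1 day (horizontal axis) for 10925 genes outside the glycolysis, autophagy and HIF lists. Dotted lines mark 1.5-fold, red points are the 293 higher and blue points the 189 lower genes, and both axes share the 1 normoxia array. CXCL8 lies farthest up and AKR1C2 farthest down.

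Cytokines, chemokines, the integrin chain ITGA5 and the laminin chain LAMB3 were among the 15 largest rises. CXCL8, the chemokine that draws neutrophils, had levels of 10.79 and 10.26 in hypoxia on days 1 and 2 and 7.49 in normoxia, a rise of 9.86-fold and 6.84-fold. TNFSF15, a cytokine of the tumour necrosis factor family, had 8.33 and 9.05 in hypoxia and 6.31 in normoxia (4.05-fold and 6.69-fold). ITGA5, the integrin chain that pairs with ITGB1 as a fibronectin receptor, had 8.85 and 9.19 in hypoxia and 6.76 in normoxia (4.26-fold and 5.37-fold). IL1A, the cytokine interleukin 1 alpha, had 9.42 and 9.00 in hypoxia and 7.15 in normoxia, and CCL5, a chemokine for T cells and monocytes, had 10.22 and 11.26 in hypoxia and 8.78 in normoxia. CXCL8 and IL1A were higher on day 1 than on day 2, and TNFSF15 and CCL5 the other way round. LAMB3, a chain of laminin-332 of the epithelial basement membrane, had 8.48 and 8.83 in hypoxia and 6.94 in normoxia (2.91-fold and 3.71-fold).

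Other genes among the 15 act on protein turnover and transcription. KLHL24, an adaptor of a cullin ubiquitin ligase, had levels of 9.31 and 9.53 in hypoxia and 7.43 in normoxia. FBXO32, the ubiquitin ligase subunit known from muscle wasting as atrogin-1, had 8.92 and 9.55 in hypoxia and 7.30 in normoxia. CREBRF, which drives the breakdown of the transcription factor CREB3, had 9.10 and 9.39 in hypoxia and 7.37 in normoxia (3.31-fold and 4.06-fold). The zinc finger factor KLF7 had 9.51 and 9.43 in hypoxia and 7.76 in normoxia. The remaining 5 were UPP1 (uridine phosphorylase, 3.77-fold and 3.01-fold), LEMD1 (3.12-fold and 3.48-fold), the cilium protein CFAP53 (3.53-fold and 3.07-fold), the stress phosphatase subunit PPP1R15A (3.32-fold and 3.17-fold) and the protease CORIN, which activates natriuretic peptide (3.13-fold and 3.34-fold). Against the untreated Snai1ER array, 15 of these 15 genes were also at least 1.5-fold higher on both days.

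The 15 largest falls included reductases, surface proteins and genes of DNA replication. AKR1C2, a steroid and carbonyl reductase, had levels of 8.08 and 5.98 in hypoxia on days 1 and 2 and 10.36 in normoxia, differences of -2.27 and -4.38. Its relative AKR1C3 had 9.75 and 9.10 in hypoxia and 10.89 in normoxia. IVL, involucrin of the cornified envelope, had 7.20 and 6.02 in hypoxia and 8.19 in normoxia. EDNRB, a receptor for endothelins, had 7.39 and 6.19 in hypoxia and 8.31 in normoxia, and the water and glycerol channel AQP3 had 9.03 and 8.34 in hypoxia and 9.83 in normoxia. In these 5 genes the day 2 array was the lowest of the 3. Their level in the untreated Snai1ER array was 6.60 for AKR1C2, 5.76 for IVL, 9.02 for AKR1C3, 7.53 for AQP3 and 7.98 for EDNRB, so that of the 5 only EDNRB was also lower in hypoxia than there by the rule. MTARC1, a mitochondrial reductase, had 7.23 and 6.91 in hypoxia and 8.54 in normoxia, and MARCHF3, a membrane ubiquitin ligase, had 5.40 and 5.79 in hypoxia and 6.88 in normoxia. FECH, the ferrochelatase that puts iron into haem, had 5.64 and 6.22 in hypoxia and 7.19 in normoxia. The other 7 were GINS4, MCM10, POLE2, CDCA7, CDC25A, TIPIN and UTP20, described with their groups below. Against the untreated Snai1ER array, 9 of the 15 falls passed the rule, and AKR1C2, IVL, AKR1C3, MTARC1, FECH and AQP3 did not. The AKR1C genes are near-identical in sequence, and their probe sets may read each other's RNA.

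**Figure D2:**
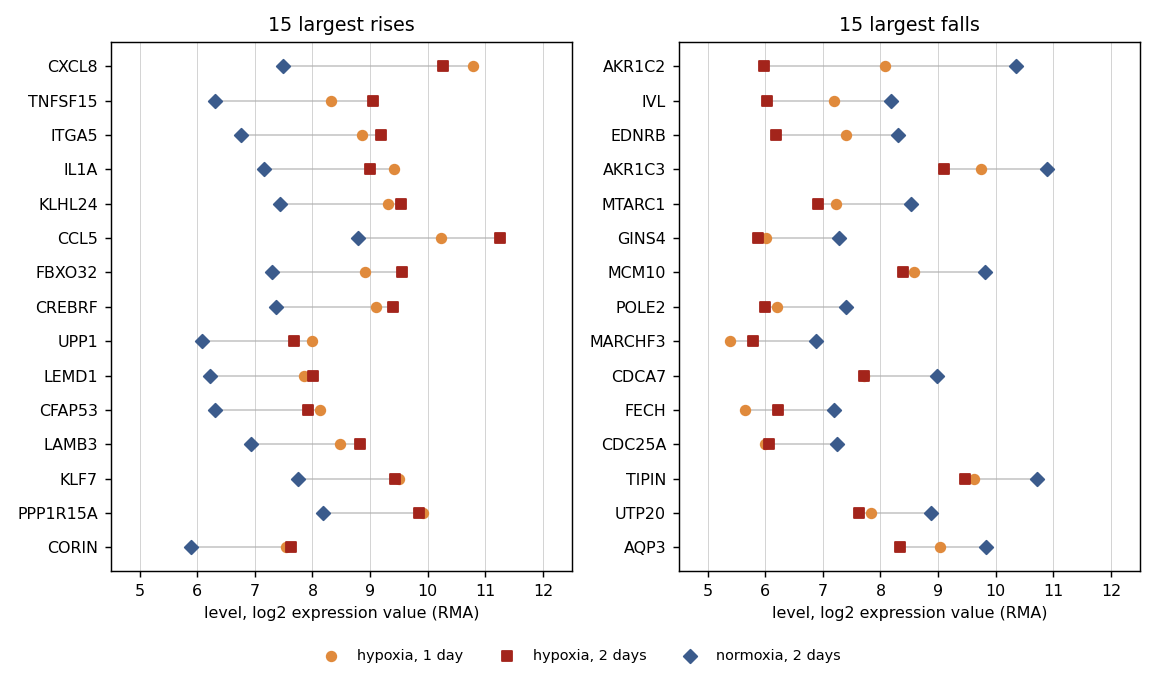
Levels (log2 expression value, horizontal axis) of the 15 genes with the largest rises (left) and the 15 with the largest falls (right) on the hypoxia day 1, hypoxia day 2 and normoxia day 2 arrays, 1 array each. CXCL8 lies at 10.79 and 10.26 in hypoxia and 7.49 in normoxia, and AKR1C2 at 8.08 and 5.98 in hypoxia and 10.36 in normoxia.

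DNA replication was the group with the most genes lower. Of 69 genes named, 68 are on the array and 66 passed the filter, and of these 27 fell (40.9%, against 1.71% of all genes kept) and none rose. The median difference over the 66 was -0.48, with 65 of them below 0, against a median of -0.02 over all genes kept. The shift was as large on day 1 as on day 2, with medians of -0.55 on day 1 and -0.54 on day 2. Of the 27, 24 were also at least 1.5-fold lower than the untreated Snai1ER array on both days.

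The members that fell included parts of the origin recognition complex, the replicative helicase and the polymerases. ORC1 of the origin recognition complex had levels of 7.44 and 7.20 in hypoxia and 8.26 in normoxia. MCM3, MCM4, MCM5 and MCM6 of the replicative helicase fell, with differences of -0.90 to -0.65 over the days, with MCM4 at 8.23 and 8.20 in hypoxia and 9.06 in normoxia. CDC45, which completes the active helicase, had 9.18 and 8.85 in hypoxia and 10.14 in normoxia, and MCM10, needed to start unwinding, had 8.58 and 8.39 in hypoxia and 9.81 in normoxia. GINS1, GINS2, GINS3 and GINS4, the 4 subunits of the GINS complex of that helicase, were all among the members lower, led by GINS4 at 6.02 and 5.88 in hypoxia and 7.29 in normoxia. POLE2, a subunit of the leading strand polymerase, differed by -1.19 on day 1 and -1.40 on day 2 of hypoxia from its normoxia level of 7.40. The clamp PCNA had the smallest fall of the 27, at 10.22 and 10.17 in hypoxia and 10.81 in normoxia. TIPIN, which protects stalled forks, had 9.63 and 9.47 in hypoxia and 10.71 in normoxia. DTL, the substrate receptor that couples protein breakdown to the clamp, had 9.02 and 8.81 in hypoxia and 10.02 in normoxia, and the repressor E2F8 had 7.87 and 7.96 in hypoxia and 9.02 in normoxia.

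Replication genes are known targets of E2F factors, and their promoters were searched for the letters TTTCCCGC or TTTGGCGC on either strand in the 300 bases from 250 before to 50 after the RefSeq gene start (GRCh38.p14). A promoter was at hand for 8909 of the 11051 genes kept, and 3.75% of them held a match. Of the 56 replication members with a promoter, 37.5% held one, and of the 20 among them that fell, 10 did. Of the 155 lower genes with a promoter over all groups, 16 (10.3%) held one, and 10 of these 16 were the replication members just counted. Of the 231 higher genes outside the 3 lists, 3.03% held one. A match is a run of letters, not a bound site. The promoters below belong to 4 genes lower in hypoxia, picked among those that hold a match, with the match in capitals. POLE2 and DTL are replication members, while CDC25A and CDCA7 are not in that list. POLE2 lies at chr14:49688165-49688464 on the minus strand, CDC25A at chr3:48188368-48188667 on the minus strand, CDCA7 at chr2:173354622-173354921 on the plus strand, and DTL at chr1:212035498-212035797 on the plus strand.
POLE2: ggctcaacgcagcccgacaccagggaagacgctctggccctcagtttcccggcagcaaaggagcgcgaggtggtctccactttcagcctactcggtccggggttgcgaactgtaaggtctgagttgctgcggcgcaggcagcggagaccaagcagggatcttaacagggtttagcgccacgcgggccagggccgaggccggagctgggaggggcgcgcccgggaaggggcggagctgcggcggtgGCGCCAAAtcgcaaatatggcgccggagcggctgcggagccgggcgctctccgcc
CDC25A: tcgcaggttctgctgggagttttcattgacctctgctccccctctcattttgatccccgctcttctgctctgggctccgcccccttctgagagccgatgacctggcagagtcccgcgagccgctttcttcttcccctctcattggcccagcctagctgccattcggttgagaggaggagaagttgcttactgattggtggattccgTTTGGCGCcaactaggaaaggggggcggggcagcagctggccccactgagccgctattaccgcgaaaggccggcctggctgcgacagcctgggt
CDCA7: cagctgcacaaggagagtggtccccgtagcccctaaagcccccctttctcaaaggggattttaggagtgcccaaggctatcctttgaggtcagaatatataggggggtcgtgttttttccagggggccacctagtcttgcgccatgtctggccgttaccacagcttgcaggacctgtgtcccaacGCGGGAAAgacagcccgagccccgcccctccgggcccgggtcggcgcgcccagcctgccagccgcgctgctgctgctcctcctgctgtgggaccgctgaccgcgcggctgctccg
DTL: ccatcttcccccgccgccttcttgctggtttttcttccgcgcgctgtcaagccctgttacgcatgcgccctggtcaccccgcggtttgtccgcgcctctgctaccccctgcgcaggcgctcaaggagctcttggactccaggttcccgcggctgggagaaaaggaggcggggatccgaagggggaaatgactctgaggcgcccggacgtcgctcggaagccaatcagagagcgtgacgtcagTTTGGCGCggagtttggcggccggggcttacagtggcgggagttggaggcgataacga

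CDCA7, an activator of the chromatin remodeller HELLS, had levels of 7.72 and 7.72 in hypoxia and 8.98 in normoxia. CDC25A, the phosphatase that switches on cyclin-dependent kinases at the start of S phase, had 5.99 and 6.07 in hypoxia and 7.24 in normoxia. In both, the hypoxia days lay within 0.1 of each other.

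Fewer genes of mitosis passed the rule. Of 72 mitosis and spindle genes, CDC25A, the kinase PBK and the kinetochore protein SPC25 fell (4.17%, against 1.71% of all genes kept), all also against the untreated Snai1ER array, and none rose, with a median of -0.28 and 67 of 72 below 0. MKI67, the proliferation antigen, had levels of 10.38 and 10.37 in hypoxia and 10.65 in normoxia. Of 43 genes of recombination, Fanconi and mismatch repair 6 fell, namely FANCM, EXO1, XRCC2, BLM, POLQ and BRIP1, with a median of -0.29 over the list, and 5 of the 6 also passed against the untreated Snai1ER array. EXO1, a 5′ exonuclease, had 8.78 and 8.33 in hypoxia and 9.37 in normoxia. Of 36 replication-dependent histone genes, whose sequences are close enough for probe sets to overlap, H2AC13 and H2BC14 fell (5.56%, against 1.71%), 1 of them also against the untreated Snai1ER array.

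Regulators of cell cycle entry went both ways. Of 34 cyclin-dependent kinase inhibitors, D cyclins and p53 targets, 5 rose (14.7%, against 2.94% of all genes kept) and 2 fell (5.88%, against 1.71%), of which 4 and 2 also passed against the untreated Snai1ER array. CDKN1A, the inhibitor p21, had levels of 8.23 and 8.20 in hypoxia and 7.41 in normoxia. CCNG2, an atypical cyclin that holds cells out of the cycle, had 9.72 and 9.88 in hypoxia and 8.60 in normoxia, and the antiproliferative BTG1 had 10.02 and 10.04 in hypoxia and 8.70 in normoxia. PMAIP1, the proapoptotic NOXA, had 9.93 and 10.27 in hypoxia and 8.61 in normoxia, and GADD45A, a stress sensor, had 8.56 and 8.51 in hypoxia and 7.70 in normoxia. CCND1, cyclin D1, had 9.60 and 9.68 in hypoxia and 10.46 in normoxia, and RBL1, the pocket protein p107, had 8.04 and 7.81 in hypoxia and 8.63 in normoxia.

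Ribosome biogenesis had, after DNA replication, the lowest median of the lists. Of 54 members 9 fell (16.7%, against 1.71% of all genes kept) and none rose, with 52 of 54 below 0 and a median of -0.42. The medians were -0.39 on day 1 and -0.51 on day 2, and 10 members on day 1 and 23 on day 2 were past 1.5-fold lower. UTP20, of the processome that cuts the small subunit RNA, had levels of 7.83 and 7.63 in hypoxia and 8.88 in normoxia. POLR1A, the largest subunit of RNA polymerase I, had 7.84 and 7.92 in hypoxia and 8.56 in normoxia. NOL6, NOP2, NOP9, RRP1B, RRS1, UTP4 and WDR12, all nucleolar processing factors, fell, with mean differences over the days of -0.82 to -0.60. Of the 9, 7 also passed against the untreated Snai1ER array, but 32 of all 54 members were lower by the rule there. UTP20 had 9.56 on that array, above its normoxia level. The pass thus does not separate hypoxia from the difference between the untreated arrays. The median of 61 ribosomal proteins was 0.04, with 43 of them above 0. None passed the rule on both days, where 2.94% of all genes kept were higher and 1.71% lower, and 2 were past 1.5-fold higher on day 1.

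The core motif ACGTG, on either strand, was in 54.3% of the 46 ribosome biogenesis promoters and in 7 of the 7 of members that fell, against 27.1% of all promoters. It lies inside CACGTG, the E-box that MYC binds, which is its own reverse complement. Of the members that fell, UTP20, NOL6, UTP4 and NOP2 hold the whole E-box, while WDR12, POLR1A and NOP9 hold ACGTG without it. The share of all promoters with the whole E-box was not counted. UTP20 lies at chr12:101279855-101280154 on the plus strand, shown because it had the largest fall of the group.
UTP20: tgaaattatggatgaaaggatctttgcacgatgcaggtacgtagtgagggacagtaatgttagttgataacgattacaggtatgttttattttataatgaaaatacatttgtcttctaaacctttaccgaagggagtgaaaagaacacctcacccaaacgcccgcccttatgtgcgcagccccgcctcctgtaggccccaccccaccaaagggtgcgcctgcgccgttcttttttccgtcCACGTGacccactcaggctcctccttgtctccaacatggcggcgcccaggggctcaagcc

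Among genes higher in hypoxia outside the 3 lists, ACGTG was in 31.2% of 231 promoters, against 27.1% of all and 31.6% of the 155 of lower genes. Inside the 3 lists it was in 44.0% of the 25 promoters of higher genes. With ACGTG or GCGTG the share was 62.3% of the 231, against 63.2% of all. The share among higher genes outside the lists was thus near that of all promoters and near that of lower genes. CREBRF, at chr5:173056102-173056401 on the plus strand, was among the largest rises and is shown for its 2 E-boxes, each holding ACGTG.
CREBRF: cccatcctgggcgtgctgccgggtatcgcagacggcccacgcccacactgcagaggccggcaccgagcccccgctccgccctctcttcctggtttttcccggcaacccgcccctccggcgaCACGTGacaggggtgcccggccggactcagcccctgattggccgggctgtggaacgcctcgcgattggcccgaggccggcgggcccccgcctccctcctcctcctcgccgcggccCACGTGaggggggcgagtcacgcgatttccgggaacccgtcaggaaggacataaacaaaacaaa

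Cytokines, chemokines and NF-kB genes were the group with the most genes higher after the HIF list. Of 39 members 15 rose (38.5%, against 2.94% of all genes kept) and none fell, with a median of 0.49. The members that rose included proteins that restrain or assist NF-kB. TNFAIP3, the ubiquitin editor A20, had levels of 8.82 and 8.51 in hypoxia and 7.57 in normoxia, and its partner TNIP1 had 8.85 and 9.34 in hypoxia and 7.90 in normoxia. NFKBIZ, a nuclear cofactor of NF-kB, had 7.05 and 6.97 in hypoxia and 5.67 in normoxia. SOD2, the mitochondrial superoxide dismutase, had 10.38 and 10.48 in hypoxia and 9.13 in normoxia, and ICAM1, the leukocyte adhesion receptor, had 9.12 and 9.03 in hypoxia and 7.97 in normoxia. C3, TNFRSF9, NFKB2, IL32, IL23A and SAA1 also rose, with mean differences over the days of 0.80 to 1.30. Only 7 of the 15 were also higher than the untreated Snai1ER array by the rule, and C3, TNFRSF9, TNFAIP3, NFKB2, IL32 and SAA1 had a mean difference below 0 against that array.

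A motif of NF-kB, GGGA and TTTCC with any base between them, was in 0.662% of all promoters, in 36.0% of the 25 promoters of this group and in 4 of the 12 of members that rose. TNFAIP3, at chr6:137867009-137867308 on the plus strand, and NFKBIZ, at chr3:101827740-101828039 on the plus strand, are shown as 2 of these 4. The capitals in TNFAIP3 mark an E-box with ACGTG and then the NF-kB motif on the other strand, and in NFKBIZ the NF-kB motif.
TNFAIP3: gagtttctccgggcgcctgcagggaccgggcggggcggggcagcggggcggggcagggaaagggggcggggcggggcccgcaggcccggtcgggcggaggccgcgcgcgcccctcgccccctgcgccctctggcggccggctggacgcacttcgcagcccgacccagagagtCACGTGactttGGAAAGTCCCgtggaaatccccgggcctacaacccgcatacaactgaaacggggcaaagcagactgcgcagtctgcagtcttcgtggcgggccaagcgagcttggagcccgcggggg
NFKBIZ: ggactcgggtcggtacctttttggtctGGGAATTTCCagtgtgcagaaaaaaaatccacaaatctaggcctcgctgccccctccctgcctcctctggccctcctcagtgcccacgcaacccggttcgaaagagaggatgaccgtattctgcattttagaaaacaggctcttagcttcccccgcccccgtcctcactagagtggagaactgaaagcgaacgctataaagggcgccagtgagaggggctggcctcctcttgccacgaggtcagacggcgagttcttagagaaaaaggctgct

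Interferon-stimulated genes were higher in small steps, more so on day 2. Of 45 members 8 rose (17.8%, against 2.94% of all genes kept) and none fell, with 43 of 45 above 0 and a median of 0.45. The median was 0.30 on day 1 and 0.58 on day 2, 41 of 45 were higher on day 2 than on day 1, and 9 members on day 1 and 22 on day 2 were past 1.5-fold. RSAD2, the antiviral enzyme viperin, had levels of 10.11 and 11.01 in hypoxia and 9.23 in normoxia. IFIT2, an antiviral RNA-binding protein, had 10.38 and 10.79 in hypoxia and 9.21 in normoxia, and HERC5, the ligase for ISG15, had 10.09 and 10.76 in hypoxia and 9.24 in normoxia. IFIT3, ISG20, IRF2, PARP12 and SP100 were the others, and 8 of the 8 also passed against the untreated Snai1ER array. TAP1, the peptide pump of antigen presentation, had 8.34 and 9.33 in hypoxia and 7.63 in normoxia, and rose also against that array. It was the only member of 9 MHC class I genes to rise (11.1%, against 2.94%). Many of these genes were high in normoxia already. The median level of the 45 was 9.37 and 9.78 in hypoxia, 9.14 in normoxia and 7.34 on the untreated Snai1ER array, so the parental normoxia array lay nearer to hypoxia than to the other untreated array. Against the Snai1ER array 39 of the 45 passed the rule. The pass of the 8 there does not separate hypoxia from the difference between the untreated arrays.

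The interferon response motif, GAAA repeated after any 2 bases, was in 2.65% of all promoters, in 63.2% of the 38 promoters of interferon-stimulated genes and in 4 of the 6 of members that rose. IFIT3, at chr10:89327747-89328046 on the plus strand, holds it at 2 places, read on the other strand and marked in capitals.
IFIT3: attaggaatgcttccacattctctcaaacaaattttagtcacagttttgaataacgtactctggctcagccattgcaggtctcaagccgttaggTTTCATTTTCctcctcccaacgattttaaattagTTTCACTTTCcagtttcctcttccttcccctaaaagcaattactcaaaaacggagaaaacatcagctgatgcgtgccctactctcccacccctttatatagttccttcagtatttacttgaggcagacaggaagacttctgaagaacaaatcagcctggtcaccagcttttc

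**Figure D3:**
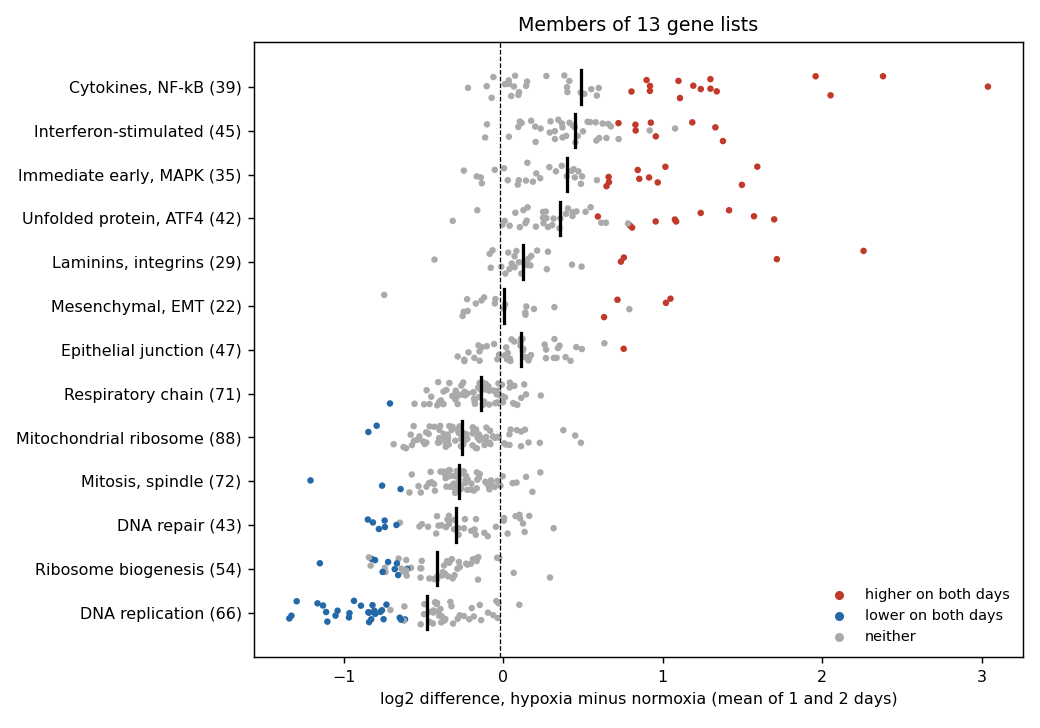
Log2 difference between hypoxia (mean of 1 and 2 days) and normoxia for the members of 13 gene lists, with the number of members in brackets. Red and blue points are members higher or lower on both days, black bars are list medians, and the dashed line is the median of all genes kept (-0.02). DNA replication has 27 of 66 members lower, and cytokines and NF-kB genes have 15 of 39 higher.

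The unfolded protein and ATF4 response was in part higher. Of 42 members 10 rose (23.8%, against 2.94%) and none fell, with 39 of 42 above 0 and a median of 0.36. Against the untreated Snai1ER array 10 of the 10 also passed, but so did 24 of the 42. Normoxia was already above that array for DDIT3 (7.99 against 6.84) and DNAJB9 (7.52 against 6.37), but not for PPP1R15A (8.19 against 8.33). For genes such as DDIT3 the pass does not separate hypoxia from the difference between untreated arrays. PPP1R15A, which brings a phosphatase to eIF2 alpha to restart translation, had levels of 9.92 and 9.85 in hypoxia and 8.19 in normoxia. DDIT3, the factor CHOP, had 9.70 and 9.42 in hypoxia and 7.99 in normoxia, and ATF3 had 7.38 and 7.84 in hypoxia and 6.37 in normoxia. EIF2AK3, the kinase PERK itself, had 9.56 and 9.34 in hypoxia and 8.64 in normoxia. Of the genes that handle misfolded protein in the endoplasmic reticulum, DNAJB9 had 9.00 and 8.87 in hypoxia and 7.52 in normoxia, and HERPUD1 had 11.38 and 11.28 in hypoxia and 10.26 in normoxia. SEL1L and SELENOS of the export machinery, MANF and SEC24D rose too. HSPA5, the main chaperone of that compartment, had 12.37 and 12.21 in hypoxia and 11.93 in normoxia, and ASNS, the ATF4 target asparagine synthetase, had 10.56 and 10.40 in hypoxia and 10.33 in normoxia, both under the rule. An endoplasmic reticulum stress motif, CCAAT and CCACG with any 9 bases between, was in 0.146% of all promoters. It was in 18.4% of the 38 promoters of this list, but in 0 of the 9 of members that rose. Only this exact form was searched, so the 0 does not cover other forms of such a motif. Of 29 cytosolic and mitochondrial chaperones, DNAJB4 and HSPB8 rose (6.9%, against 2.94%), both also against the untreated Snai1ER array, and none fell.

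Immediate early and MAPK feedback genes gave 10 of 35 higher (28.6%, against 2.94%) and none lower, with a median of 0.40. DUSP1, the phosphatase that switches off MAP kinases, had levels of 9.05 and 9.30 in hypoxia and 7.58 in normoxia, and NR4A2, an orphan nuclear receptor, had 8.62 and 8.73 in hypoxia and 7.18 in normoxia. DUSP10, SPRY1, ETS1, ETS2, FOS, FOSL2, KLF4 and KLF11 rose, with mean differences over the days of 0.65 to 1.02. For 7 of the 10 the rule was also met against the untreated Snai1ER array, while ETS1 had a mean difference of -0.57 there. Among 36 growth factors and receptors 4 ligands rose (11.1%, against 2.94%), namely PDGFA (9.92 and 10.19 in hypoxia and 8.74 in normoxia), HBEGF, GDF15 and EDN1. Of the 4, 3 also passed against the untreated Snai1ER array. EDN1, endothelin 1, had 6.91 and 7.77 in hypoxia and 6.24 in normoxia, beside the lower level of its receptor EDNRB.

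**Figure D4:**
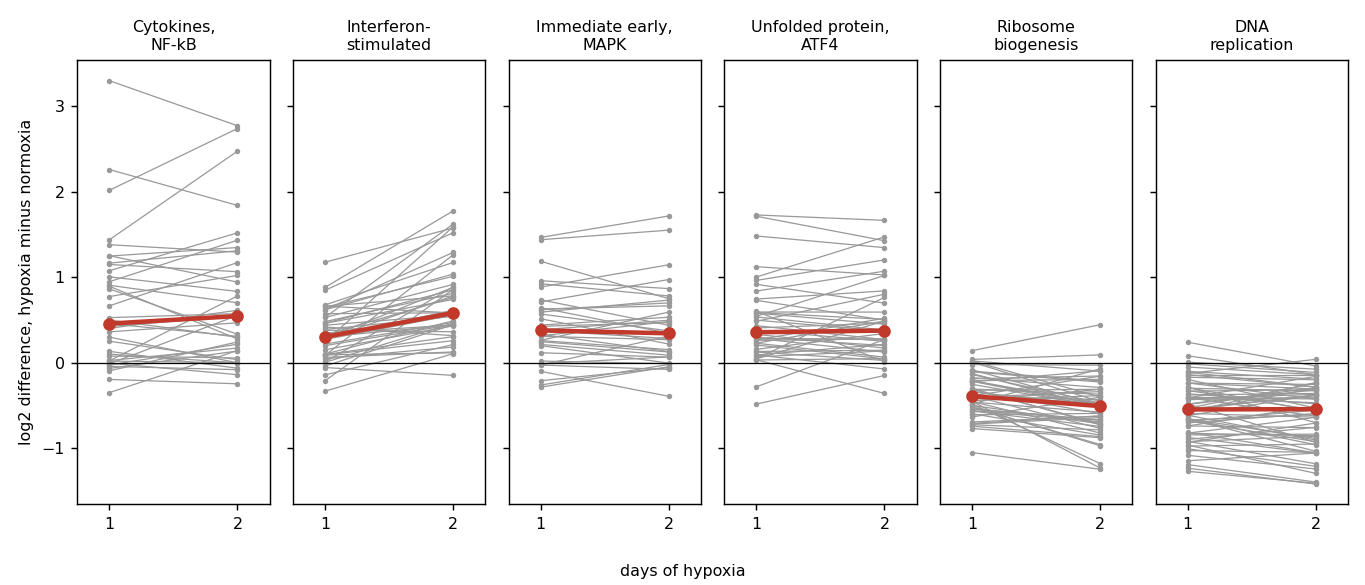
Log2 difference from normoxia (vertical axis) after 1 and 2 days of hypoxia (horizontal axis) for each member of 6 lists (grey lines) and the list median (red). Both days share the 1 normoxia array. The median of interferon-stimulated genes is 0.30 on day 1 and 0.58 on day 2, while that of DNA replication is -0.55 and -0.54.

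Adhesion and mesenchymal genes had some members higher and none lower by the rule on both days, and junction genes had nearly none past it. Of 29 laminins, integrins and matrix enzymes, ITGA5, LAMB3, ITGB4 and PLAT rose (13.8%, against 2.94% of all genes kept) and none fell, with a median of 0.13, and 4 of these 4 also passed against the untreated Snai1ER array. ITGB4, which binds laminin-332 in hemidesmosomes, had levels of 9.28 and 9.43 in hypoxia and 8.62 in normoxia, and PLAT, tissue plasminogen activator, had 8.14 and 8.33 in hypoxia and 7.48 in normoxia. Of 22 mesenchymal and epithelial-mesenchymal transition (EMT) genes above the filter, PLAUR, L1CAM, NT5E and LGALS1 rose (18.2%, against 2.94%) and none fell by the rule. The median was 0.01, with 12 of the 22 above 0 and 10 below. The lowest mean difference over the days was -0.75, and 1 member was past 1.5-fold lower on day 1 but not on day 2. Of the 4 that rose, 2 also passed against the untreated Snai1ER array. PLAUR, the urokinase receptor, had 10.52 and 10.79 in hypoxia and 9.61 in normoxia. L1CAM, an adhesion molecule, had 6.96 and 6.92 in hypoxia and 5.92 in normoxia, but was not higher than on the untreated Snai1ER array (mean difference -0.13). FN1, fibronectin, had 8.40 and 9.11 in hypoxia and 7.96 in normoxia, which is 1.35-fold on day 1 and 2.21-fold on day 2. The mesenchymal filament gene VIM, which passed the filter through other arrays, had 5.70 and 5.58 in hypoxia and 5.69 in normoxia, and CDH2, N-cadherin, was below the filter at 4.58 and 4.67 in hypoxia and 4.59 in normoxia. CDH1, E-cadherin, had 11.17 and 11.33 in hypoxia and 10.99 in normoxia. Of 47 epithelial junction and identity genes only KRT19, a keratin of simple epithelia, passed the rule (2.13%), also against the untreated Snai1ER array, at 11.82 and 11.79 in hypoxia and 11.05 in normoxia.

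Of 33 genes of TGFb and BMP signalling and their targets, 2 rose (6.06%, against 2.94% of all genes kept) and 1 fell (3.03%, against 1.71%). TGFBR1, the type I receptor, had levels of 9.26 and 9.14 in hypoxia and 8.18 in normoxia, and the ligand TGFB1 had 7.01 and 7.20 in hypoxia and 6.28 in normoxia. TGFBR3, the coreceptor betaglycan, had 9.25 and 9.28 in hypoxia and 9.88 in normoxia. Against the untreated Snai1ER array 1 of the 2 rises passed the rule and the fall did not. None of 31 Wnt and Notch genes passed the rule. Of 13 clock genes, the repressors NR1D1 (8.88 and 9.34 in hypoxia and 7.94 in normoxia) and NFIL3 (10.71 and 10.56 in hypoxia and 9.56 in normoxia) rose (15.4%, against 2.94%), both also against the untreated Snai1ER array.

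Mitochondrial genes were lower in small steps, with few members past the rule. Of 71 respiratory chain subunits, ATP5MC1 of the ATP synthase fell (1.41%, against 1.71% of all genes kept) and none rose, with 60 of 71 below 0 and a median of -0.14, which was -0.04 on day 1 and -0.25 on day 2. Of 88 genes of mitochondrial translation, MRPL20 and the elongation factor GFM1 fell (2.27%), with 74 of 88 below 0 and a median of -0.26, and 2 members on day 1 and 14 on day 2 were past 1.5-fold lower. ATP5MC1 also passed against the untreated Snai1ER array, as did 1 of the other 2. PDP1, which reactivates pyruvate dehydrogenase, had 9.48 and 9.48 in hypoxia and 8.54 in normoxia. It was the only one of 25 citrate cycle and pyruvate genes to rise (4.0%, near the 2.94% of all genes kept). PDP1 was not higher than on the untreated Snai1ER array (mean difference -0.09). None of 24 fatty acid oxidation genes passed the rule.

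Lipid synthesis genes had members called in both directions. Of 25 cholesterol genes 21 were above 0, with a median of 0.32, and NPC1 and MVD rose (8.0%, against 2.94% of all genes kept), both also against the untreated Snai1ER array. MYLIP, which breaks down the low-density lipoprotein receptor, fell, but was not lower than on that array (mean difference 0.12). Of 30 genes of fatty acid and glycerolipid synthesis and storage, ACSL5, ACSS2 and LPIN1 rose (10.0%) and GPAM fell (3.33%, against 1.71%), with a median of 0.06, and all of these also passed against the untreated Snai1ER array.

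Redox, iron and oxygen-using enzymes gave single genes of note. Of 35 NRF2 targets and antioxidant enzymes, AKR1C1, AKR1C2, AKR1C3 and GPX2 fell (11.4%, against 1.71%) and SOD2 rose (2.86%, against 2.94%). None of the 4 that fell was lower than the untreated Snai1ER array by the rule. Of 20 iron and haem genes FECH, UROS and SLC40A1 fell (15%, against 1.71% of all genes kept), of which 1 also passed against the untreated Snai1ER array. UROS, an enzyme of haem synthesis, had 8.66 and 8.68 in hypoxia and 9.28 in normoxia, and SLC40A1, the iron exporter ferroportin, had 6.84 and 7.19 in hypoxia and 7.81 in normoxia, but was not lower than on the untreated Snai1ER array (mean difference 1.28). Of 37 oxygen-dependent dioxygenases outside the HIF list, 2 rose (5.41%, against 2.94%) and 1 fell (2.7%, against 1.71%), each also against the untreated Snai1ER array. The histone demethylases KDM7A (8.01 and 7.48 in hypoxia and 6.64 in normoxia) and KDM6A (8.11 and 8.25 in hypoxia and 7.52 in normoxia) rose. ALKBH8, which modifies transfer RNA, fell (7.43 and 7.36 in hypoxia and 8.39 in normoxia). Of 200 solute carriers 4 rose (2.0%, against 2.94% of all genes kept) and 8 fell (4.0%, against 1.71%), of which 3 and 3 also passed against the untreated Snai1ER array. Of 298 ZNF zinc finger genes 9 rose (3.02%, against 2.94% of all genes kept), led by ZNF432, and ZNF239 fell (0.336%, against 1.71%), all 10 also against the untreated Snai1ER array.

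Some genes passed 1.5-fold on 1 day while the other day was under 1.2-fold. By this stricter limit 26 genes were higher (0.235%) and 35 lower (0.317%) on day 1, and 76 higher (0.688%) and 80 lower (0.724%) on day 2. CYP1A1, a target of the aryl hydrocarbon receptor, led those lower on day 1, at 7.51 and 8.86 in hypoxia and 8.91 in normoxia. TLR3, a sensor of double-stranded RNA, had 6.81 and 7.95 in hypoxia and 7.76 in normoxia. MSMO1, an enzyme of cholesterol synthesis, led those higher on day 1, at 10.52 and 9.91 in hypoxia and 9.65 in normoxia. On day 2 the leaders were CAPN6 (6.92 and 8.53 in hypoxia and 6.84 in normoxia) and the interferon-stimulated CMPK2 (7.41 and 8.75 in hypoxia and 7.16 in normoxia) and UBE2L6 (8.60 and 9.78 in hypoxia and 8.52 in normoxia). ZNF749, TIMM21, SLC4A7, CHAC2 and CCDC138 had the lowest day 2 differences of this kind, with differences of -1.16, -1.01, -0.98, -0.95 and -0.94.

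The arrays with ANGPTL4 knockdown in hypoxia share the normoxia array, and values of a few genes stand here side by side with no test. NDRG1 differed from normoxia by 0.66 on day 1 and 2.97 on day 2 with knockdown, and by 2.30 and 2.54 without. CXCL8 differed by 0.20 and 1.98 with knockdown, and by 3.30 and 2.77 without. For KLF7 the values were 1.72 and 1.23 with knockdown, and 1.75 and 1.67 without. The quartiles of all probe sets were 4.75 and 7.66 on the knockdown day 1 array, and 4.60 and 7.87 on the hypoxia day 1 array.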

How the data were processed

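The deposited values are log2 expression values of GeneChip Human Gene 1.0 ST arrays, which the authors made with RMA in Partek (named without versions in the submitters' processing notes) from NuGEN-amplified RNA. Of 33297 probe sets, 19461 have 1 gene symbol, 1753 have several and 12083 are not listed in the annotation. Gene IDs, of which 19430 matched, gave current symbols. Where a gene had several probe sets (769 genes) their mean was taken, and genes at or above the 40th percentile of mean level were kept. Python 3.11.15, pandas 2.3.3 and numpy 2.4.6 were used, and the calling was tested on simulated data. The number of arrays limits the precision.

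The genes named are the 15 largest rises and 15 largest falls outside the 3 lists set aside, up to 4 members of each of 38 lists and more where many passed the rule, the 5 most extreme genes of each 1-day set, and marker and treatment genes. Members under the rule that the text names beyond these (MKI67, HSPA5, ASNS, VIM, CDH2) were chosen for their known roles after their values were seen. The members and lists were chosen with earlier results of these data known. Promoters are from RefSeq, GRCh38.p14, and the motifs other than ACGTG were chosen after the groups that changed had been seen. Alternatives covered scaling, filter, probe sets, the size rule, days and the untreated array.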

Additional observations from a re-analysis of the deposited data

Results flagged for a closer look

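SNORD14E, a small nucleolar RNA gene, was the 1 gene past 1.5-fold in opposite directions on the days of hypoxia. It differed from normoxia by 0.71 on day 1 and by -0.82 on day 2, with levels of 8.58 and 7.05 in hypoxia and 7.88 in normoxia, and the difference between the days was not tested.

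Probe sets that the report does not use also passed the size rule. Of 1075 probe sets with several gene symbols above the filter, 34 were higher and 3 lower in hypoxia on both days. Of 4095 probe sets above the filter that the annotation does not list, 103 were higher and 67 lower. Over the genes kept, 2.94% were higher and 1.71% lower.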

How the results depend on the processing

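The counts of genes higher and lower in hypoxia, 325 and 189, depended mainly on the size rule, the days and the untreated array. They were 87 and 16 at 2-fold, 499 and 335 on day 1 alone, and 575 and 491 on day 2 alone, while 325 were lower in the mean of the days. Against the untreated Snai1ER array they were 1122 and 843, with 252 and 128 genes shared with the main comparison. At 2-fold, 7 replication members were lower, 1 ribosome biogenesis member lower, and 5 unfolded protein, 1 interferon-stimulated, 9 cytokine and 2 immediate early members higher. On day 2 alone, 23 ribosome biogenesis members were lower and 22 interferon-stimulated genes higher, and in the mean of the days 19 and 16. Against the untreated Snai1ER array, 24 unfolded protein members and 39 interferon-stimulated genes were higher and 32 ribosome biogenesis members lower, and 7 cytokine members were higher than both untreated arrays. With ACGTG or GCGTG the promoter share was 62.3%, in place of 31.2% with ACGTG. Among the 266 named genes, a turn of direction was counted only for those past the rule on both days. Of these, 17 turned, all with the untreated Snai1ER array, where the mean difference was 0.43 for AKR1C2, 0.85 for IVL, 0.41 for AKR1C3, 0.67 for AKR1C1, 1.16 for AQP3, 0.011 for GPX2, 1.28 for SLC40A1, 0.12 for MYLIP, -0.089 for PDP1, -0.0094 for C3, -0.10 for TNFRSF9, -0.038 for TNFAIP3, -0.049 for NFKB2, -0.60 for IL32, -3.07 for SAA1, -0.57 for ETS1 and -0.13 for L1CAM. Named genes under the rule could turn without being counted. TLR3, for example, had a mean difference of -0.37 from normoxia, and 0.85 and 1.99 on the days from the untreated Snai1ER array. The cause was not tested. Scaling each array by its median (316 higher and 178 lower) or by quantiles anew (335 and 216) turned the direction of no named gene past the rule. No paired analysis was possible because each condition is 1 array and the labels carry no replicate numbers, and for the same reason no array could be left out.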

Other observations

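Groups noticed in the values, and so chosen after they were seen, are given here as values with no test. Members of these groups that did not change were not counted, and the untreated Snai1ER array was not compared. Genes of RNA polymerase III and of the RNase P and MRP enzymes, which make and trim transfer RNA and other small RNAs, were among those lower. POP1, the large protein of RNase P, had levels of 7.34 and 6.77 in hypoxia and 8.07 in normoxia, POP5 had 7.55 and 7.46 in hypoxia and 8.53 in normoxia, and RPP40 had 6.65 and 6.26 in hypoxia and 7.36 in normoxia. The polymerase subunits POLR3B (8.60 and 8.35 in hypoxia and 9.31 in normoxia), POLR3G (8.84 and 8.56 in hypoxia and 9.45 in normoxia) and POLR3K (10.27 and 10.11 in hypoxia and 11.01 in normoxia) were lower too, while POLR3D was higher, at 7.70 and 7.73 in hypoxia and 6.88 in normoxia.

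Several genes known from stratified epithelia were higher in hypoxia, although IVL of the same tissue was lower. SCEL, sciellin, had levels of 8.59 and 8.72 in hypoxia and 7.26 in normoxia, A2ML1, a protease inhibitor, had 7.07 and 7.86 in hypoxia and 6.28 in normoxia, and RNASE7, an antimicrobial ribonuclease, had 7.76 and 7.02 in hypoxia and 6.20 in normoxia. UPK1A, of the urothelial plaque, had 7.26 and 7.27 in hypoxia and 6.17 in normoxia, and KRT16 had 8.55 and 8.74 in hypoxia and 7.81 in normoxia.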
